A study of Homo sapiens with 12 samples.

Results

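Long noncoding RNAs (lncRNAs) are transcripts that carry out their functions as RNA rather than as templates for protein. The account below covers 10 of them in Huh7 cells: the nuclear RNAs MALAT1, NEAT1, KCNQ1OT1 and TUG1, the mainly cytoplasmic RNAs NORAD and OIP5-AS1, the microRNA host transcripts MIR22HG and PVT1, and HULC and CYTOR, which are studied in liver and other cancers. Their rows were found by gene symbol, and they make up 10 of the 60666 genes listed for Huh7. Huh7 is an established human hepatocellular carcinoma cell line. It was grown in high-glucose DMEM with foetal bovine serum and compared in 3 control libraries and 3 shFAM111B libraries. In the shFAM111B cells a lentiviral short hairpin RNA targeted FAM111B, which encodes a serine protease. Lentiviral control sequences and puromycin selection belonged to the cell-line work, and the study's sequence list gives a single hairpin for FAM111B. The labels do not say what the control libraries carried or whether replicates came from separate cultures. The p-values therefore measure the spread between these libraries, which may be technical. The Hep3B libraries were not analysed here.

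These RNAs do different jobs. MALAT1 is enriched in nuclear speckles, bodies rich in splicing factors. NEAT1 is the scaffold of paraspeckles, nuclear bodies built around RNA-binding proteins. KCNQ1OT1 is transcribed from one parental allele and silences neighbouring imprinted genes. TUG1 has been tied to Polycomb-mediated repression. NORAD binds Pumilio proteins, which repress mRNAs, and OIP5-AS1 (also known as Cyrano) directs the decay of the microRNA miR-7. MIR22HG is the primary transcript of miR-22, and PVT1 lies next to the oncogene MYC. HULC was named for its high level in liver cancer. Values are TPM, a level scaled by transcript length and to the same total in each library. TPM can be compared between genes only as far as library preparation captured their RNAs alike.

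The sequences behind these roles are shown first because the results return to them. NORAD holds its Pumilio motifs (TGTANATA, with N any base, searched on the RNA strand) in repeats, and the 3 places where a pair of motifs is separated by a single base are printed with the motifs in capitals (GRCh38, minus strand, chr20:36049497-36049525, chr20:36048300-36048328 and chr20:36047664-36047692).
NORAD pair 1: tatctgTGTATATAgTGTACATAaaggac
NORAD pair 2: ctatacTGTATATAtTGTATATAtaacgg
NORAD pair 3: gtgctgTGTATATAgTGTATATAagcgga
The longest NORAD transcript (5339 nt, 1 exon) held 15 such motifs. Among 16054 annotated lncRNA genes 9.57% held at least 1 motif in their longest transcript, and 4 genes, NORAD included, held 15 or more. KCNQ1OT1 held 9 in 91667 nt, NEAT1 held 6 in 22743 nt, TUG1 held 2 and OIP5-AS1 held 1, while the longest transcripts of the other 5 members held 0. OIP5-AS1 carries a site with extended pairing to miR-7-5p (chr15:41300574-41300599, plus strand), shown beside the microRNA with complementary bases of the site and the seed of the microRNA (positions 2 to 8) in capitals.
OIP5-AS1 site: AACAACAAAATCACcaatGTCTTCCA
miR-7-5p: uGGAAGACuagugauuuuguuguu
The site pairs with both ends of the microRNA, over 14 bases with its 3′ end and over 8 bases with its 5′ end, and 4 bases lie between. The OIP5-AS1 transcript used here contained 3 matches of 7 bases to that seed in all. MIR22HG gives rise to miR-22-3p, printed with its seed in capitals.
miR-22-3p: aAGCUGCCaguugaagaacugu
MALAT1 and the long form of NEAT1 end in an encoded A-rich tract with upstream U-rich stretches, in place of an ordinary poly(A) tail, and both are printed because these libraries were made by oligo(dT) selection. The capitals mark the longest run of A in MALAT1 (chr11:65506008-65506120) and the runs of at least 4 A at the annotated NEAT1 end (chr11:65445461-65445540), both on the plus strand.
MALAT1 A-rich tract: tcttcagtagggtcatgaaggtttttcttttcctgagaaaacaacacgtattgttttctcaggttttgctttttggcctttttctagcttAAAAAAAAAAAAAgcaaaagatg
NEAT1 long-form end: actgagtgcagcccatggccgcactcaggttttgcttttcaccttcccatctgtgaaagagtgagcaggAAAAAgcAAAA
The MALAT1 run was 13 bases long. Longer internal runs of A were found in NEAT1 (22), KCNQ1OT1 (29), OIP5-AS1 (29) and TUG1 (18), against a median of 5 for the longest run over annotated lncRNA genes.

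The knockdown was visible in its target. FAM111B measured 7.84, 8.29 and 7.99 TPM in the controls and 0.96, 1.13 and 0.84 TPM in the shFAM111B libraries. The groups did not overlap, and the mean left was 12.1% of control (log2 fold change −2.20 ± 0.113 SE, adjusted p = 6.09e-06, limma with Benjamini-Hochberg adjustment). Fold changes are on the log2(TPM + 1) scale, which understates this one because FAM111B is low. With 0.1 TPM added in place of 1 TPM it was −2.93. All 10 hepatocyte markers, among them ALB, AFP and APOB, were at or above 38.5 TPM in every library. They did not hold steady, as 6 fell and 4 rose at an adjusted p under 0.05 in limma. Among all tested genes 50.9% fell and 21.1% rose. AFP went to 317% and APOB to 20.4% of control. The summed TPM of these markers were 32176 to 32458 in controls and 49173 to 56051 in knockdown libraries. Of 8 stromal, endothelial and immune markers only 4 passed the filter on low values, and no gene of the list was above 23.4 TPM in any library. The genes of that list that did not pass, PTPRC, CD3E, VWF and COL1A1, each averaged under 1 TPM in both groups. PTPRC still measured 2.39 TPM in control replicate 3. The summed TPM of this list were 26.1 to 29.4 in controls and 37.1 to 42.7 in knockdown libraries. The 4 that passed the filter were CD68, which rose (log2 0.45, adjusted p = 0.0016), COL1A2, which rose (0.53, adjusted p = 0.0288), and PDGFRB (0.54, adjusted p = 0.0639) and PECAM1 (0.41, adjusted p = 0.109), which did not pass.

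Of the 10 lncRNAs, 9 reached 1 TPM in at least 3 of the 6 libraries and were tested among 14394 genes, and KCNQ1OT1 did not. MALAT1, TUG1, NORAD and MIR22HG fell at least 2-fold at P under 0.05, and in limma 0 of 9 rose by that measure, while 1 (CYTOR) was higher at an unadjusted P under 0.05 without the limit on the fold. Across all tested genes 23.7% were called lower and 6.82% called higher, and across the 1630 tested lncRNA genes 10.5% were called lower and 16.9% higher. The 9 members are longer than most lncRNAs, though MIR22HG (2626 nt), PVT1 (1699 nt) and HULC (3568 nt) are under 4000 nt. Among the 128 tested lncRNA genes with a longest transcript over 4000 nt, a class without these members, 18.8% were called lower. At an adjusted p under 0.05 with no limit on the fold, 6 of 9 fell (MALAT1, TUG1, NORAD, MIR22HG, OIP5-AS1 and PVT1), where 50.9% of all tested genes fell and 21.1% rose, and NEAT1, HULC and CYTOR did not pass. The TPM of the 2 groups did not overlap for 7 of the 9, against 75.2% of all tested genes. The median log2 fold change was −0.75 over the 9 members, −0.36 over all tested genes and 0.23 over all tested lncRNA genes.

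MALAT1 was the member of the nuclear speckle. Its gene lies at chr11:65497688-65506516 (GRCh38, plus strand) and its longest transcript is a single exon of 8708 nt. The controls gave 56.1, 62.19 and 64.46 TPM and the shFAM111B libraries 16.16, 19.47 and 15.63 TPM. Every knockdown library was below every control, and the mean fell from 60.9 ± 4.32 to 17.1 ± 2.08 TPM (SD, n = 3), which left 28.0% of control. It changed by a log2 fold of −1.78 ± 0.0983 (SE), with a 95% interval from −2.01 to −1.55 and an adjusted p of 7.65e-06 in limma. Only 2.88% of tested lncRNA genes had a lower fold change. The rank of MALAT1 by mean TPM among 15854 listed lncRNA genes went from 28 to 130. The genes whose profile over the 6 libraries was most like that of MALAT1 were SALL1, a zinc finger transcription factor (7.41 to 1.55 TPM, distance 0.0977 in centred log2 values), and GCN1, an activator of the integrated stress response (46.0 to 12.8 TPM, distance 0.103).

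NEAT1 lies next to MALAT1 on chromosome 11 (chr11:65422774-65445540, plus strand) and gave a different result. Its controls measured 104.37, 88.51 and 93.8 TPM and its shFAM111B libraries 75.84, 76.07 and 91.12 TPM. Replicate 3 of the knockdown lay among the controls, so the groups overlapped, and the means were 95.6 ± 8.08 and 81.0 ± 8.76 TPM. The log2 fold change was −0.24 ± 0.0937, its 95% interval ran from −0.46 to −0.02, and the adjusted p of 0.0545 in limma missed the threshold. Without knockdown replicate 3 the value was −0.32 with an adjusted p of 0.00904, without control replicate 2 it was −0.29 with an adjusted p of 0.0488, and without each of the other 4 libraries it lay between −0.25 and −0.17 and did not pass (adjusted p 0.099 to 0.168). Its sign turned to 0.21 with median-of-ratios scaling and 0.17 with upper-quartile scaling. Relative to the median of all tested genes NEAT1 was 0.12 higher. The tested coding gene nearest to NEAT1 and MALAT1 at lower coordinates, FRMD8, a plasma membrane protein gene, fell from 27.1 ± 4.66 to 7.38 ± 1.26 TPM (log2 −1.75, adjusted p = 6.21e-05). The short and long forms of NEAT1 share their 5′ part, and values per gene do not separate them. The nearest profiles were those of the lncRNA AC110285.2 (1.09 and 0.81 TPM) and of KATNA1, a microtubule-severing enzyme (15.3 and 13.0 TPM).

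Within a library the ratio of NEAT1 to MALAT1 does not depend on how that library was scaled. The log2 ratio was 0.90, 0.51 and 0.54 in the controls and 2.23, 1.97 and 2.54 in the shFAM111B libraries. The groups did not overlap, and the mean ratio was 1.60 higher after knockdown (exact permutation test, two-sided, p = 0.1, the smallest that 3 against 3 libraries allow, 0.15 after adjustment over 9 ratios). NEAT1 was above MALAT1 in each of the 6 libraries. The smallest p was also reached by OIP5-AS1, MIR22HG, PVT1, HULC and CYTOR, with differences of 1.24, 0.78, 0.68, 1.91 and 2.08, and as MALAT1 is the denominator of each, these ratios are not independent. RNA without a poly(A) tail also differed between the libraries. The summed TPM of ribosomal RNA genes were 2850, 2489 and 1056 in controls and 35926, 53091 and 2567 in shFAM111B libraries, and those of small nuclear, small nucleolar and other short RNA genes were 1978, 1625 and 571 against 10635, 15589 and 2439. Knockdown replicate 3, with the least ribosomal RNA of its group, was also the knockdown library with the highest NEAT1, HULC and CYTOR. Its 2567 TPM of ribosomal RNA lay within the range of the controls. Whether these levels are linked to ribosomal RNA was not tested. The TPM were also rescaled to the total of nuclear protein-coding genes. This leaves out ribosomal, short and all other noncoding RNAs and also the genes of the mitochondrial chromosome. NEAT1 then measured 138.0, 117.0 and 122.0 in controls and 92.4, 95.8 and 104.0 in knockdown libraries. Its groups no longer overlapped, and its log2 fold change moved further down, from −0.24 to −0.36 (adjusted p = 0.00398 in limma). On that scale the log2 fold change of MALAT1 was −1.91. Which of the omitted genes moved these values was not tested.

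KCNQ1OT1 was at the lower end of what the table resolves. Its single-exon model covers 91667 nt (chr11:2608328-2699994, minus strand), inside and antisense to the potassium channel gene KCNQ1. It was listed at 0.24, 0.23 and 0.23 TPM in controls and 0.06, 0.08 and 0.06 TPM in knockdown libraries. All 3 knockdown values were below all 3 controls, and the means of 0.233 and 0.0667 TPM left 28.6% of control. It was not tested because no library reached 1 TPM, and values are given to 2 decimals. TPM are divided by transcript length, so a low value for a model this long need not mean few reads. Its log2 ratio to MALAT1 was −8.03 ± 0.139 in controls and −8.01 ± 0.0745 in knockdown libraries (SD, n = 3 each, difference 0.02, exact permutation p = 0.9). KCNQ1 itself was listed at 0 TPM in 4 of the 6 libraries and at no more than 0.15 TPM in the others.

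In the imprinted neighbourhood of KCNQ1OT1, 7 of 12 listed genes were tested. Of these 1 was called higher and 0 lower, and at the adjusted threshold 3 rose and 1 fell, with a median log2 fold change of 0.30. Among all tested genes 6.82% were called higher and 23.7% lower, and 21.1% rose and 50.9% fell at the adjusted threshold. CDKN1C, a cyclin-dependent kinase inhibitor that KCNQ1OT1 silences on the paternal allele, rose from 1.15 ± 0.138 to 3.58 ± 0.413 TPM (log2 1.09, adjusted p = 0.000241). It is also the tested coding gene nearest to KCNQ1OT1 at higher coordinates, and the nearest at lower coordinates, TSSC4, rose by 0.63 (adjusted p = 0.00067). The tetraspanin CD81 rose by 0.51 (adjusted p = 0.000171), and the histone chaperone NAP1L4 had a log2 change of −0.61 (adjusted p = 0.000105). Whether these changes and the level of KCNQ1OT1 are linked was not tested.

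TUG1 (chr22:30969245-30979395, plus strand, longest transcript 7469 nt in 3 exons) left the smallest share of its control level among the tested members. Its controls measured 51.43, 48.47 and 46.65 TPM and its knockdown libraries 11.99, 13.02 and 11.4 TPM. The groups were far apart and the mean left was 24.8% of control (48.9 ± 2.41 to 12.1 ± 0.82 TPM). In limma the change was −1.92 ± 0.074 (log2) with an adjusted p of 2.95e-06. Its ratio to MALAT1 differed by −0.17 between the groups, which overlapped (exact permutation p = 0.3). MORC2, a chromatin ATPase gene on the other strand whose start lies 0.947 kb from that of TUG1, gave 50.2 ± 0.467 and 54.3 ± 6.45 TPM (log2 0.10, adjusted p = 0.315). On the other side SMTN, a smooth muscle protein gene, had a log2 change of −0.28 (adjusted p = 0.0229).

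NORAD (chr20:36045622-36050960, minus strand), the RNA of the Pumilio motifs printed above, had the third highest mean TPM of the members in controls. Its values were 89.17, 83.07 and 80.48 TPM in controls and 21.34, 22.23 and 20.54 TPM in knockdown libraries. There was no overlap, and the mean fell from 84.2 ± 4.46 to 21.4 ± 0.845 TPM, or 25.4% of control. This was a log2 fold change of −1.93 ± 0.0624 (adjusted p = 2.46e-06), with a 95% interval from −2.08 to −1.78. The ratio of NORAD to MALAT1 differed by −0.14 with overlapping groups (exact permutation p = 0.4), and the groups also overlapped in the ratio of TUG1 to MALAT1. Of its neighbours CNBD2 was not distinguishable between the groups (log2 0.38, adjusted p = 0.519) and EPB41L1, a membrane skeleton protein gene, rose from 1.33 ± 0.42 to 2.69 ± 0.588 TPM (0.67, adjusted p = 0.0159).

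The protein partners of NORAD were also measured. All 8 listed partners were tested, of which 2 were called lower and 0 higher, 6 fell and 1 rose at the adjusted threshold, and the median was −0.77. Over all tested genes 23.7% were called lower, close to the share of these partners, and 50.9% fell and 21.1% rose at the adjusted threshold. PUM2, a Pumilio repressor, fell from 19.6 ± 1.79 to 6.36 ± 0.0503 TPM (log2 −1.48, adjusted p = 1.08e-05). TOP1, the topoisomerase found with NORAD in the nucleus, fell from 72.4 ± 1.70 to 32.1 ± 3.02 TPM (−1.15, adjusted p = 1.42e-05).

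MALAT1, TUG1 and NORAD fell together, and their promoters are therefore printed from RefSeq (GRCh38.p14), from 250 bases before to 50 bases after the start. Of the 10 members 6 had a promoter in the reference table. Capitals mark CACGTG (the same on both strands), the GC box GGGCGG or CCGCCC, and the CCAAT box CCAAT or ATTGG. The intervals are chr11:65497488-65497787 (plus), chr22:30969015-30969314 (plus) and chr20:36050911-36051210 (minus).
MALAT1: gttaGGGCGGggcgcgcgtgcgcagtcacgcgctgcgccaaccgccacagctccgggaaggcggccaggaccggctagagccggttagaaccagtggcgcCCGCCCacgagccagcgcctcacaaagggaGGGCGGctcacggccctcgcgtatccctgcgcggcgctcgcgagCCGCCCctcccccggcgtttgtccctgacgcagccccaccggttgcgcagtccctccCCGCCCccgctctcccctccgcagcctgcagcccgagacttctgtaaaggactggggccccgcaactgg
TUG1: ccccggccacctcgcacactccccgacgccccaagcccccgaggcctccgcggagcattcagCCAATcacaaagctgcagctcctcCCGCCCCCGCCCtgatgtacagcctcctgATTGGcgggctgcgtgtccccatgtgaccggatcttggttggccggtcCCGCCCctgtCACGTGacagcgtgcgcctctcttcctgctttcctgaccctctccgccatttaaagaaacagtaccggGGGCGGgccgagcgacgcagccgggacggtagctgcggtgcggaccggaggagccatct
NORAD: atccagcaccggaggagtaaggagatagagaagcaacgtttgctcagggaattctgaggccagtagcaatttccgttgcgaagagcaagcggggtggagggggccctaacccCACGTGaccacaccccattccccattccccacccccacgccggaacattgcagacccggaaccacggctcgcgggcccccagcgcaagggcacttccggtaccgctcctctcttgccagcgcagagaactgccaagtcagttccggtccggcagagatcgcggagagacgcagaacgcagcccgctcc
CACGTG, the E-box form bound by MYC and USF proteins, occurred once in TUG1, once in NORAD and once in OIP5-AS1, and in 7.26% of all 35116 promoters of this length. It was not found in the windows of MALAT1, MIR22HG and CYTOR. GC boxes numbered 5 in MALAT1, 4 in TUG1 and 0 in NORAD and occurred in 45.0% of promoters, and CCAAT boxes numbered 2 in TUG1 and 0 in the other 2, against 34.6% of promoters. None of the 3 motifs thus occurred in all 3 windows of MALAT1, TUG1 and NORAD. These are matches of letters and no binding was measured.

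OIP5-AS1 (chr15:41283990-41309737, plus strand) was a low member. Its controls measured 8.6, 10.15 and 8.12 TPM and its knockdown libraries 5.37, 6.02 and 6.29 TPM. The groups did not overlap, and the mean fell from 8.96 ± 1.06 to 5.89 ± 0.473 TPM (log2 −0.53 ± 0.114, adjusted p = 0.00457). This is close to the median of all tested genes, from which it differed by −0.17. The call was lost with median-of-ratios scaling (−0.13, adjusted p = 0.344), upper-quartile scaling (−0.16, adjusted p = 0.23) and quantile normalization (−0.0025, adjusted p = 0.985), and the sign turned once the trend with length and expression had been taken out (0.50, adjusted p = 0.00564). Its gene overlaps AC087721.2 on the same strand (53.1 to 28.5 TPM, log2 −0.88, adjusted p = 5.6e-05) and OIP5, a centromere assembly gene, on the other strand (28.5 to 20.7 TPM, −0.44, adjusted p = 0.00293), so the share of reads assigned to each is uncertain. Its flanking genes CHP1 and NUSAP1 gave log2 changes of −0.39 (adjusted p = 0.000751) and −1.39 (adjusted p = 5.58e-05). Relative to MALAT1, OIP5-AS1 was higher in every knockdown library than in any control (difference 1.24 in log2 ratio, exact permutation p = 0.1).

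MIR22HG (chr17:1711493-1717174, minus strand), the host of the miR-22-3p sequence above, fell by about as much as the call requires. Its controls measured 31.55, 40.96 and 37.65 TPM and its knockdown libraries 17.29, 16.56 and 18.88 TPM. Each knockdown library was below each control, with means of 36.7 ± 4.77 and 17.6 ± 1.19 TPM, or 47.9% of control. On the log2 scale the change was −1.02 ± 0.106 (adjusted p = 0.00012). It was smaller than 2-fold with median-of-ratios scaling (−0.58), with upper-quartile scaling (−0.62), with quantile normalization (−0.58) and with the trend removed (−0.66), and also without control replicate 2 (−0.94), without control replicate 3 (−0.99) or without knockdown replicate 2 (−0.98), though the adjusted p stayed under 0.05 in each. Mature miR-22 was not measured by these libraries. WDR81, on the other strand over the same region, measured 17.2 ± 0.292 and 14.4 ± 1.69 TPM (log2 −0.24, adjusted p = 0.0531). Of the flanking coding genes, TLCD2 gave −0.30 (adjusted p = 0.0866) and SERPINF2, which encodes the plasmin inhibitor made by liver, fell from 410.2 ± 2.80 to 213.3 ± 4.30 TPM (−0.94, adjusted p = 3.15e-06).

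PVT1 measured 3.0, 2.4 and 3.42 TPM in controls and 1.14, 1.91 and 1.01 TPM in knockdown libraries. The groups did not overlap, but knockdown replicate 2 stood nearer to the controls than the other two. Its mean fell from 2.94 ± 0.513 to 1.35 ± 0.486 TPM, or 46.0% of control, and on the log2(TPM + 1) scale, which understates changes of low genes, by 0.75 with a standard error of 0.189 (adjusted p = 0.00899). The change was −1.10 when 0.1 TPM was added in place of 1 TPM, and with 3 scalings the adjusted p lost the threshold (0.0594 to 0.0695). MYC, the tested coding gene nearest on one side at 53.1 kb, fell further (60.3 ± 2.17 to 17.2 ± 1.00 TPM, log2 −1.75, adjusted p = 2.91e-06). CYRIB, the nearest tested coding gene on the other side, lay 1740 kb away and had a log2 change of −1.29.

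HULC kept to the spread of its libraries. The controls measured 70.47, 80.14 and 71.56 TPM and the knockdown libraries 73.54, 76.08 and 83.43 TPM. The ranges overlapped, and the means were 74.1 ± 5.30 and 77.7 ± 5.14 TPM. Its log2 fold change was 0.07 ± 0.0733 with an adjusted p of 0.428, and the 95% interval from −0.11 to 0.24 leaves out a 2-fold change in either direction on the deposited scale. HULC was 0.43 above the median of all tested genes. Scaling moved it: it rose by 0.52 with median-of-ratios scaling (adjusted p = 0.000504) and by 0.20 with quantile normalization (adjusted p = 0.0444), and was −0.06 when scaled to protein-coding genes (adjusted p = 0.481). On this last scale it measured 93.2, 106.0 and 93.2 in controls and 89.6, 95.8 and 95.2 in knockdown libraries, and the groups overlapped. The identifier listed as HULC is annotated in GENCODE v29 as AL591485.1, a locus at chr6:8435568-9294133 with 113 transcripts, which is far larger than the RefSeq HULC gene inside it (chr6:8652269-8653856). The value may therefore include other transcripts of that locus. SLC35B3, a nucleotide sugar transporter gene on the other strand that the locus overlaps, gave −0.16 (adjusted p = 0.185). The nearest tested coding genes on either side, EEF1E1 at 333 kb and GCNT2 at 1200 kb, gave −0.09 (adjusted p = 0.128) and −0.07 (adjusted p = 0.551). SPATA2L and DUS2 had the profiles most like that of HULC, with distances of 0.0681 and 0.0741.

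CYTOR (chr2:87454781-87636740, plus strand) had the highest mean TPM of the members in both groups. Its controls measured 102.2, 114.99 and 112.61 TPM and its knockdown libraries 124.53, 117.97 and 150.37 TPM. All 3 knockdown libraries were above all controls, by a margin smaller than their own spread, and the means were 109.9 ± 6.80 and 131.0 ± 17.1 TPM. The log2 fold change of 0.24 ± 0.0977 (95% interval from 0.01 to 0.48) had an adjusted p of 0.0569 and did not pass. Without knockdown replicate 3 it was 0.14, and without knockdown replicate 2 it was 0.32 with an adjusted p of 0.0253. It rose with median-of-ratios scaling (0.70, adjusted p = 0.000436) and upper-quartile scaling (0.66, adjusted p = 0.000455), and did not pass with quantile normalization (0.22, adjusted p = 0.056) or the protein-coding total (0.12, adjusted p = 0.181). Rescaled to that total, CYTOR measured 135.0, 152.0 and 147.0 in controls and 152.0, 149.0 and 172.0 in knockdown libraries, and the groups overlapped. CYTOR has a near copy, MIR4435-2HG, elsewhere on chromosome 2 (chr2:111036776-111523376), and 23.1% of the 31-base words of its longest transcript occur in that of the copy, where they make up 48.9%. MIR4435-2HG measured 92.44, 95.32 and 113.34 TPM in controls and 129.61, 131.82 and 143.96 TPM in knockdown libraries and rose (log2 0.43 ± 0.087, adjusted p = 0.00336). How the shared reads were split between these genes is uncertain. The nearest tested coding genes on either side of CYTOR gave 0.01 (PLGLB1, 433 kb away, adjusted p = 0.963) and −0.38 (KRCC1, 390 kb away, adjusted p = 0.00683).

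The order of the members by measured TPM changed. How fully oligo(dT) selection captured MALAT1 and the long form of NEAT1 was not tested, so their places may not reflect their abundance in cells. By mean TPM the controls ran CYTOR, NEAT1, NORAD, HULC, MALAT1, TUG1, MIR22HG, OIP5-AS1, PVT1 and KCNQ1OT1, from 109.9 to 0.233 TPM. CYTOR and NEAT1 overlapped in range, as did NEAT1 and NORAD, and the other neighbours in this order did not. In knockdown libraries CYTOR, NEAT1 and HULC led, NEAT1 and HULC overlapped, and NORAD followed at 21.4 TPM, with MIR22HG and MALAT1 overlapping behind it. Among all 15854 listed lncRNA genes NORAD went from rank 21 to 93 and TUG1 from 36 to 190, while HULC was at rank 23 in both groups and CYTOR went from 12 to 17. The summed TPM of the 10 members were 517.1, 531.1 and 519.0 in controls and 347.3, 349.4 and 398.7 in knockdown libraries. The summed TPM of all lncRNA genes were 11424 to 12232 in controls and 16422 to 16767 in knockdown libraries. This last total includes genes with short transcripts, such as RMRP (268 nt, log2 fold change 2.44). With no threshold, 980 of the 1630 tested lncRNA genes were higher and 650 lower. Which genes raised the total was not tested.

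The fall of the long members sat in a table where fold changes moved with transcript length. The median log2 fold change over all tested genes was 0.43 for longest transcripts of up to 1000 nt (n = 1484), −0.31 for those over 2000 and up to 4000 nt (n = 5166), and −0.78 for those over 4000 and up to 8000 nt (n = 4346). Tested lncRNA genes followed with 0.38 (n = 784), 0.11 (n = 395) and −0.34 (n = 109), and had −0.24 above 8000 nt (n = 19). NORAD (5339 nt) and TUG1 (7469 nt) lay below the median of lncRNAs of their length class, whereas CYTOR, with 7512 nt, lay above it. With the dependence on length and expression taken out, NORAD (−1.26), TUG1 (−1.04) and MALAT1 (−0.93, adjusted p = 0.000153 in limma) were still lower in knockdown libraries. So were the shorter PVT1 (−0.75, adjusted p = 0.012) and MIR22HG (−0.66, adjusted p = 0.00128). CYTOR (0.79), OIP5-AS1 (0.50, adjusted p = 0.00564) and HULC (0.47) were higher, and NEAT1 (0.13, adjusted p = 0.245) did not pass.

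The proteins of the bodies that these RNAs occupy were followed as background to MALAT1 and NEAT1. Of 18 nuclear speckle proteins, all tested, 9 were called lower (50%, against 23.7% of all tested genes) and 0 higher, with a median of −0.99, and at the adjusted threshold 15 fell and 0 rose, where 50.9% of all tested genes fell. PNISR, an SR-related protein, fell from 39.5 ± 2.24 to 8.93 ± 0.69 TPM (log2 −2.03), SRRM1, a splicing coactivator, from 69.6 ± 5.67 to 14 ± 1.5 TPM (−2.24), and PNN, a splicing factor, from 75.6 ± 5.05 to 27.7 ± 0.386 TPM (−1.41). Of 18 paraspeckle proteins 5 were called lower (27.8%) and 0 higher, with a median of −0.48, and at the adjusted threshold 12 fell and 2 rose. HNRNPK, needed to form paraspeckles, fell from 511.0 ± 14.4 to 200.3 ± 8.49 TPM (−1.35). CPSF7 and HNRNPH1, an RNA cleavage factor subunit and a splicing regulator, each had a log2 change of −1.55. The core paraspeckle proteins, named here after their values were seen, differed: PSPC1 fell by 1.07 and SFPQ by 0.95 on the log2 scale, and NONO was at 126.4 ± 3.37 and 126.3 ± 5.37 TPM (adjusted p = 0.983). These counts moved with scaling, to 4 and 3 called lower with median-of-ratios scaling.

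Genes listed for the 3′ ends of MALAT1 and NEAT1 did not move one way. Of 12 genes, which encode RNase P proteins and other 3′ end factors, 2 were called lower and 1 higher, with a median of 0.35, and at the adjusted threshold 4 fell and 7 rose. The shares over all tested genes were 23.7% called lower, 6.82% called higher, 50.9% fallen and 21.1% risen. The RNase P subunit POP5 rose from 23.9 ± 1.39 to 67.4 ± 3.28 TPM (log2 1.46), POP1, the largest subunit, fell from 6.96 ± 0.394 to 2.29 ± 0.305 TPM (−1.28), and POP7 rose by 0.42 (adjusted p = 0.000247). Of 28 other lncRNAs studied in liver or cancer, 15 were tested, with 3 called higher, 0 lower and a median of 0.43, and at the adjusted threshold 7 rose and 2 fell. The share called higher was near the 16.9% of all tested lncRNA genes. UCA1, named for urothelial cancer, rose from 8.49 ± 0.77 to 72.8 ± 3.20 TPM (log2 2.96 ± 0.0798, higher in 3 of 3 libraries than in any control). DANCR, a small nucleolar RNA host, rose by 0.89 and CRNDE by 0.67 (adjusted p = 3.26e-05 and 0.000894).

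The levels came from whole cultures, so fewer cells with an RNA and less of it per cell cannot be told apart. TPM are shares of a library and hold no counts, so the sequencing depth behind each value is unknown and changes in total RNA per cell are not visible in them.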

How the data were processed

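RNA was selected with oligo(dT) beads and made into libraries with a stranded mRNA kit, per the labels, while the study's methods name a TruSeq kit. The authors deposited TPM for each of 3 control and 3 shFAM111B Huh7 libraries, with group means and their own fold change, log2 fold change, p-value and adjusted p-value, none of which were used. The submitters' processing notes name RSEM, DESeq2 and hg38. Versions, the annotation and the use of strand in counting are not given in the sources used here. TPM hold no counts, so the count test foreseen in the design was replaced by limma and the depth of each library is unknown. The deposited TPM sum to between 978634 and 997094 per library.

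The test covered the 14394 genes that reached 1 TPM in 3 or more of the 6 libraries, after log2(TPM + 1), and the groups were compared in limma 3.58.1 (R 4.3.3; lmFit, eBayes with trend, no covariate) with Benjamini-Hochberg adjustment. Fold changes are on that scale. Calls needed a 2-fold change and P under 0.05. Limma was tested on simulated data. Ratios to MALAT1 were compared by two-sided exact permutation over 6 libraries. Replicate r lay between 0.969 and 0.984 and no pair of libraries was a duplicate. Positions and longest transcripts are from GENCODE v29 (GRCh38), which holds 96.3% of the listed identifiers, promoters and microRNAs from RefSeq (GRCh38.p14). The members and lists were chosen with earlier results of these data known. Named are the members, FAM111B, tested coding genes that overlap or flank a member, the 3 genes with the smallest P of each list (all where 5 or fewer were tested), the 2 nearest profiles of MALAT1, NEAT1 and HULC, and MIR4435-2HG. Some genes that this rule names are not reported here. Alternatives were 2 filters, a pseudocount of 0.1, a replicate block, each library left out, 4 scalings, and removal of a loess trend with length and expression. The scaling to protein-coding genes printed per library was chosen after seeing the data.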

Additional observations from a re-analysis of the deposited data

How the results depend on the processing

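MALAT1, TUG1, NORAD and FAM111B kept their direction and their side of the adjusted threshold under all alternatives in which they were tested. FAM111B was not tested where every library had to reach 1 TPM. In that order, the genes had ranges of −1.87 to −1.72, −1.97 to −1.88, −1.96 to −1.89 and −2.25 to −2.15 over the fits that each left out 1 library. The number of members called lower was 3 to 4 over those fits, 2 (TUG1 and NORAD) with the trend with length and expression removed, and 3 to 5 otherwise, and 0 members were called higher in any fit. The sign turned for NEAT1 with median-of-ratios scaling (0.21), upper-quartile scaling (0.17) and the trend removed (0.13), for OIP5-AS1 with the trend removed (0.50) and for HULC with the protein-coding total (−0.06). NEAT1 (adjusted p = 0.0435) and CYTOR (adjusted p = 0.0445) passed the threshold when every library had to reach 1 TPM. Over all tested genes the median went from −0.36 to 0.03, −0.01 and −0.03 with median-of-ratios, upper-quartile and quantile scaling, the genes called lower from 3409 to 1798, 1910 and 1849 and those called higher from 981 to 2030, 1899 and 1694. With the trend removed the numbers were 1307 and 1371, and with at least 1 TPM in every library 634 were called higher.

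Among the lists the paraspeckle proteins called lower went from 5 to 3 with median-of-ratios and with upper-quartile scaling, and the nuclear speckle proteins from 9 to 4, 5 and 3 with median-of-ratios scaling, upper-quartile scaling and the trend removed. The 3′ end genes called lower went from 2 to 0 with median-of-ratios, upper-quartile and quantile scaling and to 1 with the trend removed, and those called higher from 1 to 2 in these 4 fits. NORAD partners called lower went from 2 to 1 with median-of-ratios and upper-quartile scaling, to 0 with quantile normalization and the trend removed, and to 4 with the protein-coding total, and 1 was called higher in the first pair. In the imprinted domain 2 in place of 1 were called higher, and among other lncRNAs 6, 5, 5 and 5 in place of 3, with median-of-ratios, upper-quartile and quantile scaling and the trend removed. Leaving out 1 library gave 5 to 6, 8 to 9, 1 to 3, 2 to 2 and 0 to 0 called lower in the first 5 lists, and 1 to 3 called higher among other lncRNAs, where 1 was called without shFAM111B replicate 3. For the 3′ end genes 1 was called lower without control replicate 3, shFAM111B replicate 1 or shFAM111B replicate 2. With TPM + 1 the ratio to MALAT1 differed by 1.57 for KCNQ1OT1 and 1.02 for PVT1, and over fits without 1 library that of KCNQ1OT1 lay between −0.03 and 0.10.

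The same-numbered libraries of the groups deviated from their group means with correlations of 0.054, 0.0349 and 0.0908. For differently numbered libraries the correlations lay between −0.0763 and 0.0442. Of the 6 libraries 5, all but shFAM111B replicate 2, correlated best with their own number. Whether the numbers pair the libraries is therefore not settled, and the main fit used no pairing. With the replicate block the counts of members called were 4 lower and 0 higher, 3410 of all genes were called lower and 996 higher, and CYTOR passed the adjusted threshold (0.24, adjusted p = 0.0462). DESeq2 was not run because TPM hold no counts, and the unknown depth limits what can be said of KCNQ1OT1 and PVT1. The causes of these shifts were not tested.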
